A study of Homo sapiens with 4 samples.

Results

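The data cover 34 genes that androgen is known to induce in LNCaP, a human prostate cancer cell line that carries the androgen receptor, kallikreins left aside. They were chosen by name, through every probe set whose platform annotation names one of them alone. Of the 34 genes, 29 had such a probe set, which gave 50 of the 22215 probe sets of the array. SLC45A3, ACSL3, SORD and RHOU had none in the annotation used, HERC3 was named only together with another gene, and these 5 were not analysed here. PPAP2A is given under its current name, PLPP1.

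RNA was compared 24 hours after LNCaP cells received, by lipofection, a MED1 expression vector (2 arrays) or the empty vector (2 arrays). Both groups grew in the same medium with fetal bovine serum, no androgen was added or withdrawn in any sample, and no label gives the share of cells that took up a vector. The transfection was transient, so each array averages cells with and without it, and in such bulk RNA fewer responding cells and a smaller response per cell cannot be told apart. The labels do not say whether the 2 arrays of a group stem from different cultures, and a p-value therefore reflects the spread between these arrays alone, which may be technical.

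Androgens bind the androgen receptor, a nuclear receptor that then occupies DNA, mostly at distal enhancers, and recruits coactivators. Mediator, of which MED1 is a subunit, bridges such receptors to RNA polymerase II, and MED1 carries motifs that nuclear receptors bind. In prostate luminal cells the induced genes encode membrane and secreted proteins, lipid and sugar nucleotide enzymes, signalling proteins and transcription factors. The comparison asks whether levels of these genes depend on added MED1.

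The MED1 transcript itself was higher on 1 of its 2 probe sets, at signals of 559 and 807 in the MED1 arrays and 292 and 315 in the empty vector arrays (limma, Benjamini-Hochberg adjusted p = 0.032). That call ended in 4 of 13 alternative settings, with no filter on dim probe sets (adjusted p = 0.381), no intensity trend (0.358) and either empty vector array left out (0.0607 without replicate 1 and 0.0869 without replicate 2). On the other probe set the groups overlapped (1172 and 1074 in the MED1 arrays, 1097 and 1011 in the empty vector arrays). Markers fixed for luminal prostate cells were present, with KRT18 at 7034 to 8128 and the 204582_s_at probe set of KLK3 at 3659 to 4208 over the 4 arrays, and all 5 measured luminal markers of 7 had a tested probe set. The basal keratins KRT5 and KRT15 lay below the filter on dim probe sets, and KRT14 read 69.9 to 108. None of the 3 measured leukocyte markers of 5 had a tested probe set, and 1 of 4 endothelial markers and 2 of 6 fibroblast markers had one. The summed signal of 5 neuroendocrine markers was 123 and 152 in the MED1 arrays and 241 and 335 in the empty vector arrays, most of it from ENO2, while CHGA, CHGB, SYP and NCAM1 lay below the filter. The part of this difference in the results below was not tested.

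None of the chosen genes that could be tested passed the test for a change in cells given MED1. The term androgen-induced genes, used alone below, means this chosen list. The list had 50 probe sets, of which 39 from 25 genes were bright enough to be tested. For these, the mean log2(signal + 16) over all 4 arrays reached the 40th percentile of the array, which corresponds to a signal of about 31. Of these 39, 0 passed at an adjusted p of 0.05 (limma, Benjamini-Hochberg over 13329 probe sets), where 0.293% of all tested probe sets passed. At an unadjusted p under 0.05 there were 4, namely ADAMTS1 and PMEPA1 with higher values in MED1 cells and LRIG1 and TMPRSS2 with lower ones. These make 10.3% of the 39, and 9.2% of all tested probe sets had such a p (4% higher and 5.2% lower), so the share is near the background. Leaving out any single array moved both this share and the background. The share then lay below the background without MED1 replicate 1 or empty vector replicate 2. Without MED1 replicate 2 or empty vector replicate 1 it lay above the background.

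Changes on the log2 scale ran from -0.46 for LRIG1 to 0.32 for ELL2, with a median of 0.04, 23 values above 0 and 16 below. Over all tested probe sets the median was -0.02. No change reached 1.5-fold, a size that 2.23% of all tested probe sets exceeded. The 95% interval lay within 1.5-fold in both directions for 32 of the 39 (82.1%), and for 69.0% of all tested probe sets. The intervals of LRIG1, PMEPA1, TRPM8, ANKH and ELL2, and of 1 probe set each of TPD52 and CAMKK2, reached beyond that size. Both MED1 arrays lay above both empty vector arrays for 9 of the 39, where the background is 17.2%, and below them for 8, where it is 22.6%. For any single probe set an exact permutation test over the 4 arrays would give a two-sided p of 0.333 at the lowest.

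The spread between replicates was of the same size as the difference between groups. The median absolute difference over the 39 probe sets, in log2(signal + 16), was 0.10 between the MED1 arrays and 0.14 between the empty vector arrays. Between arrays of different groups it was 0.09 and 0.10 against empty vector replicate 1, and 0.17 and 0.18 against empty vector replicate 2. Empty vector replicate 2 was thus the array from which the others lay farthest.

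**Figure D1:**
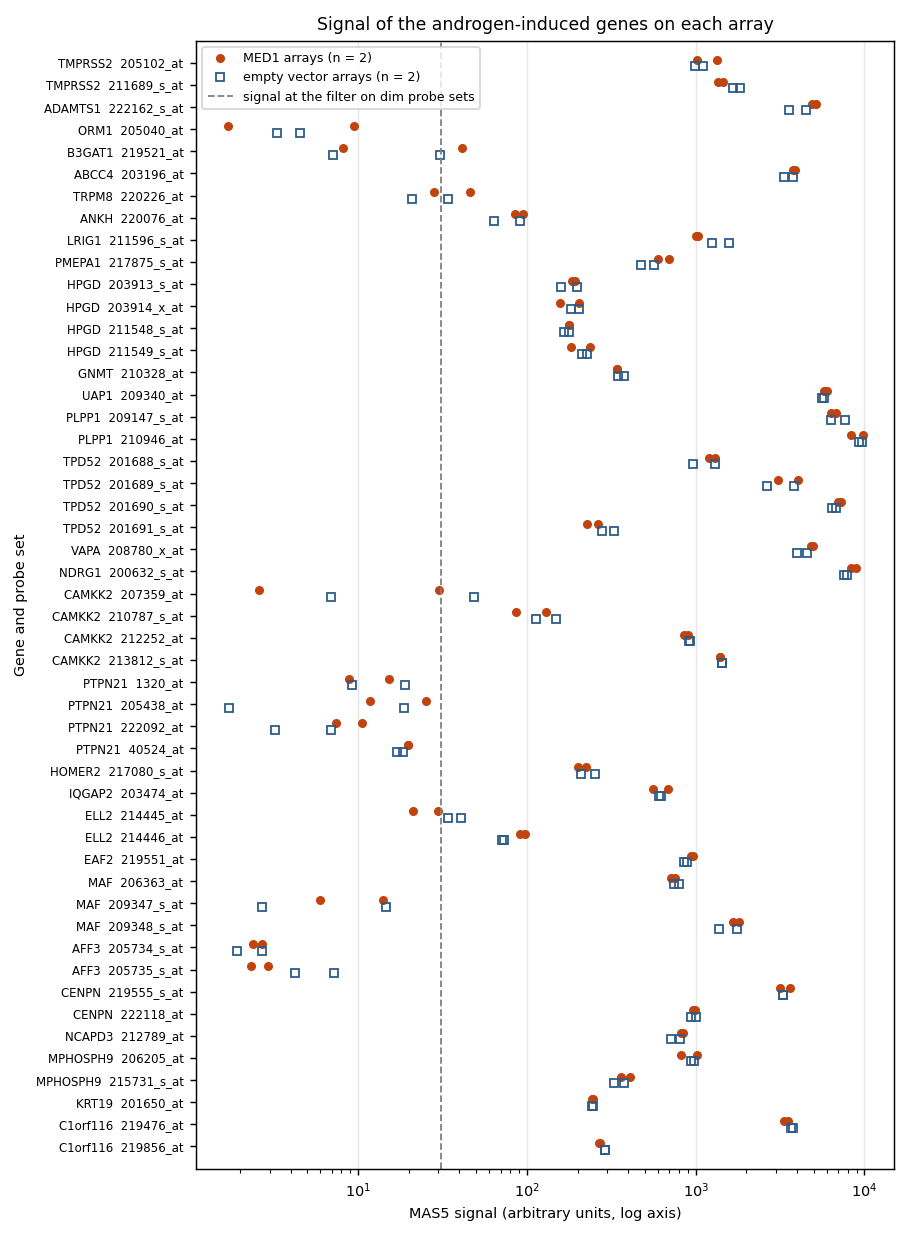
MAS5 signal in arbitrary units on a log axis for all 50 probe sets of the 29 androgen-induced genes, with 2 MED1 arrays (filled) and 2 empty vector arrays (open) in each row and a dashed line at the signal of the filter, about 31. The groups overlap in 22 of the 39 tested rows and in 7 of the 11 rows whose mean over the arrays lies below the filter. Single symbols of those 11 rows, as for B3GAT1, can lie above the line.

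Among membrane and secreted proteins, 7 genes with 8 probe sets were tested. LRIG1, a membrane protein that dampens receptors of the EGF family, read 1003 and 1037 in the MED1 arrays and 1255 and 1585 in the empty vector arrays. The groups did not overlap, and the log2 fold change was -0.46 ± 0.12 (SE), or 0.726-fold (limma, adjusted p = 0.27). Its size was -0.30 without empty vector replicate 2 and -0.63 without empty vector replicate 1, so the distance between the empty vector arrays moves it.

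TMPRSS2, a transmembrane serine protease whose androgen-driven promoter is fused to ERG in many prostate tumours, was measured by a pair of probe sets that point in opposite directions. On 211689_s_at it read 1351 and 1459 in the MED1 arrays and 1658 and 1830 in the empty vector arrays, a log2 fold change of -0.31 ± 0.10. On 205102_at it read 1338 and 1023 in the MED1 arrays and 1099 and 987 in the empty vector arrays, or 0.17 ± 0.13. The arrays separated on the first and, on the second, overlapped, with MED1 replicate 1 alone above the rest. The difference between the 2 changes was -0.47, with a 95% interval from -0.90 to -0.05, at an unadjusted p of 0.0327 and an adjusted p of 0.737 over 3874 pairs of probe sets of 1 gene (limma, Benjamini-Hochberg).

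ADAMTS1, a secreted metalloprotease that cuts matrix proteoglycans, read 5157 and 4858 in the MED1 arrays and 4482 and 3596 in the empty vector arrays. Its log2 fold change was 0.32 ± 0.12 (adjusted p = 0.459), and 0.16 without empty vector replicate 2, the lowest array. PMEPA1, a membrane protein that limits TGF-beta signalling by binding SMAD proteins, read 698 and 601 in the MED1 arrays and 568 and 477 in the empty vector arrays. The groups lay apart by a small gap, with a log2 fold change of 0.31 ± 0.13 (adjusted p = 0.502), 0.18 when empty vector replicate 2 was left out and 0.20 when MED1 replicate 1 was. ABCC4, an efflux pump for cyclic nucleotides and drugs, read 3775 and 3879 in the MED1 arrays and 3766 and 3336 in the empty vector arrays, a fold change of 1.08.

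The dimmer members of this group gave wide intervals. ANKH, which exports ATP and pyrophosphate, read 95 and 85.6 in the MED1 arrays and 64 and 90.9 in the empty vector arrays. TRPM8, a cation channel opened by cold and menthol, lay at the filter, with 46.5 and 28.1 in the MED1 arrays against 20.8 and 34.3 in the empty vector arrays and a 95% interval reaching 1.96-fold. ORM1, a plasma glycoprotein of the acute phase, and B3GAT1, an enzyme that makes the HNK-1 carbohydrate, lay below the filter, at 1.70 to 9.45 and 7.12 to 41.6 over the 4 arrays. Replicates of ORM1 in the MED1 arrays (9.45 and 1.70) differed more than its groups did.

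**Figure D2:**
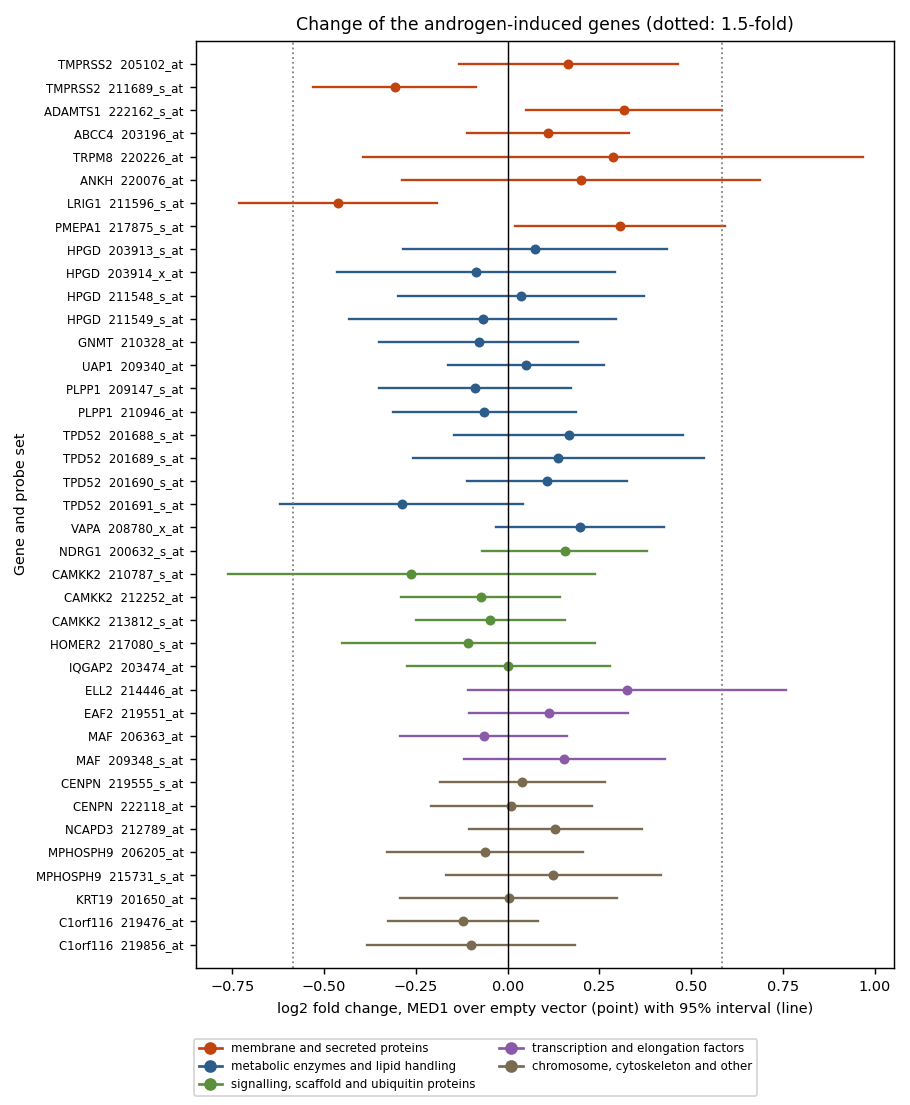
Log2 fold change of MED1 over empty vector (points) with limma's 95% interval (lines) for the 39 tested probe sets, coloured by the role of the gene, with dotted lines at 1.5-fold. The intervals of LRIG1, ADAMTS1, PMEPA1 and the TMPRSS2 probe set 211689_s_at leave out 0, all points lie within the dotted lines, and 0 of 39 passed after adjustment.

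Among metabolic enzymes and proteins of lipid handling, 6 genes with 13 probe sets were tested, and 0 had an unadjusted p under 0.05. VAPA, a tether between the endoplasmic reticulum and other membranes, read 4823 and 4971 in the MED1 arrays and 4563 and 3992 in the empty vector arrays, with no overlap and a log2 fold change of 0.20 ± 0.10 (adjusted p = 0.59), which was 0.10 without empty vector replicate 2 and 0.29 without empty vector replicate 1. The suffix of its probe set (x_at) marks possible cross-hybridisation. UAP1, which makes UDP-N-acetylglucosamine for glycosylation, read 5731 and 5986 in the MED1 arrays and 5737 and 5576 in the empty vector arrays, a log2 fold change of 0.05 ± 0.09. GNMT, which methylates glycine from S-adenosylmethionine, read 341 and 343 in the MED1 arrays against 347 and 377 in the empty vector arrays. For UAP1 the 95% interval ended at 1.2-fold, so a larger rise lay outside it.

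TPD52, a protein of vesicle traffic whose gene is often gained in prostate tumours, had 4 tested probe sets. On 3 the values were above 0, at log2 fold changes of 0.11, 0.14 and 0.17, and on 201691_s_at the value was -0.29 ± 0.15. Of those 3, 201688_s_at and 201689_s_at had values below 0 without empty vector replicate 2 (-0.0526 and -0.13), and 201689_s_at also without MED1 replicate 1 (-0.0558). On 201691_s_at the signals were 264 and 227 in the MED1 arrays and 330 and 278 in the empty vector arrays. On 201690_s_at they were 7227 and 6982 in the MED1 arrays and 6790 and 6402 in the empty vector arrays. The groups were apart on both 201691_s_at and 201690_s_at, in opposite directions. The difference between their changes was 0.40, with a 95% interval from 0.08 to 0.71 (unadjusted p = 0.0187, limma adjusted p = 0.737).

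PLPP1, which removes phosphate from bioactive lipids, gave -0.06 ± 0.11 and -0.09 ± 0.12 on its probe sets, with overlapping groups on both. On the second it read 6348 and 6792 in the MED1 arrays and 6338 and 7702 in the empty vector arrays. HPGD, which inactivates prostaglandins, had 4 tested probe sets between -0.09 and 0.07. All their signals over the 4 arrays lay between 158 and 239, and on none did the groups separate.

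Among signalling and scaffold proteins, 4 genes with 6 probe sets were tested, and 0 had an unadjusted p under 0.05. NDRG1, a protein linked to stress and differentiation, read 8290 and 8907 in the MED1 arrays and 7886 and 7548 in the empty vector arrays, apart by group, with a log2 fold change of 0.16 ± 0.10 (adjusted p = 0.661). CAMKK2, a calcium-dependent kinase that activates AMPK, was below 0 on all 3 tested probe sets. The brightest, 213812_s_at, read 1388 and 1386 in the MED1 arrays and 1432 and 1435 in the empty vector arrays with no overlap, and its log2 fold change of -0.05 ± 0.09 turned to 0.00459 when each array was centred on its median. The others gave -0.07 and, on 210787_s_at, -0.26, which was -0.51 and -0.0095 with MED1 replicate 1 or 2 left out, and -0.0818 and -0.44 with empty vector replicate 1 or 2 left out. A 4th probe set lay below the filter.

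HOMER2, a scaffold of calcium signalling, read 225 and 200 in the MED1 arrays and 209 and 253 in the empty vector arrays. IQGAP2, a scaffold that binds actin, gave 0.00223 ± 0.12, at 687 and 557 in the MED1 arrays against 625 and 610 in the empty vector arrays. All 4 probe sets of PTPN21, a tyrosine phosphatase with a FERM domain, lay below the filter, between 1.73 and 25.4 over the 4 arrays.

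Among transcription and elongation factors, 3 genes with 4 probe sets were tested. ELL2, a factor that speeds elongation by RNA polymerase II, was tested on 1 of its 2 probe sets. That one read 91.0 and 98.2 in the MED1 arrays and 73.7 and 70.9 in the empty vector arrays, with no overlap, and a log2 fold change of 0.32 ± 0.19 (adjusted p = 0.631). Its dimmer probe set, below the filter, ran the other way without overlap, with 29.8 and 21.1 in the MED1 arrays and 34.3 and 40.8 in the empty vector arrays. EAF2, which binds ELL proteins, read 933 and 962 in the MED1 arrays and 860 and 893 in the empty vector arrays, apart by group, a fold change of 1.08 (adjusted p = 0.76).

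MAF, a leucine zipper transcription factor, gave 0.15 ± 0.12 on one tested probe set (1813 and 1655 in the MED1 arrays against 1748 and 1382 in the empty vector arrays) and -0.07 ± 0.10 on the other (719 and 752 in the MED1 arrays against 745 and 797 in the empty vector arrays). The groups overlapped on both. AFF3, of the family of proteins found in elongation complexes, lay at 1.93 to 7.26 on its probe sets, far below the filter, and entered no test. In all, 11 of the 50 probe sets lay below the filter, and among them the MED1 arrays were both higher on 2 and both lower on 2, where 13.3% and 20.5% of all probe sets below the filter were.

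The remaining 5 genes, of chromosomes, cytoskeleton and other roles, had 8 tested probe sets, all with 95% intervals within 1.5-fold. C1orf116, known for its androgen regulation, read 3337 and 3506 in the MED1 arrays and 3669 and 3776 in the empty vector arrays, and on a dimmer probe set 272 and 269 in the MED1 arrays and 290 and 293 in the empty vector arrays. Both were lower without overlap, at log2 fold changes of -0.12 ± 0.09 and -0.10 ± 0.13 (adjusted p = 0.721 and 0.851). NCAPD3, a subunit of condensin II, read 847 and 824 in the MED1 arrays and 810 and 717 in the empty vector arrays, a log2 fold change of 0.13 ± 0.10, or 0.0445 without empty vector replicate 2 and 0.22 without empty vector replicate 1.

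CENPN, which binds the centromeric histone, gave 0.04 ± 0.10 and 0.01 ± 0.10 on its probe sets. MPHOSPH9, a protein phosphorylated in mitosis, gave -0.06 ± 0.12 and 0.12 ± 0.13. KRT19, a keratin of simple epithelia, read 245 and 246 in the MED1 arrays and 243 and 247 in the empty vector arrays, and its 95% interval ended at 1.23-fold.

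**Figure D3:**
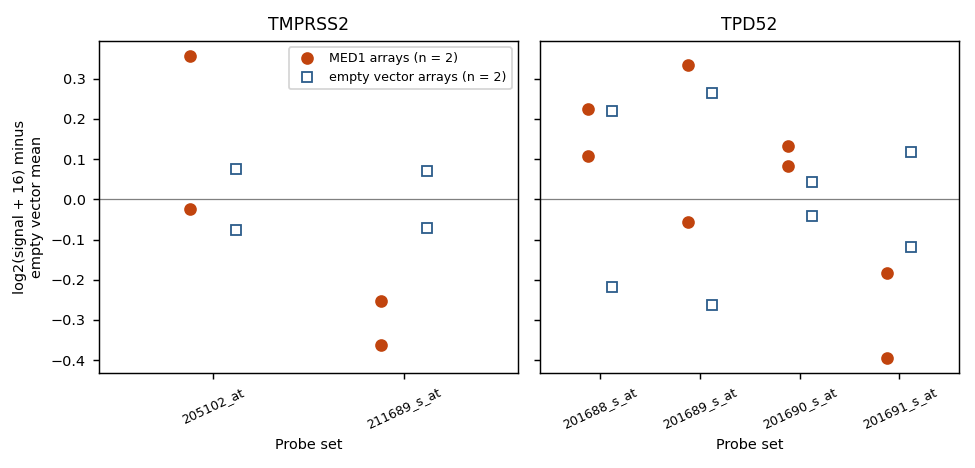
Values of each array, in log2(signal + 16) minus the empty vector mean, for the probe sets of TMPRSS2 (left) and TPD52 (right), with MED1 arrays filled and empty vector arrays open. TMPRSS2 211689_s_at and TPD52 201691_s_at have both MED1 arrays below both empty vector arrays, and the other probe sets of these genes do not.

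Probe sets of 1 gene could be compared for 9 of the 25 genes, in 14 pairs of the brightest with each other tested one. The signs were opposite in 6 pairs, from TMPRSS2, TPD52, HPGD, MAF and MPHOSPH9. Of the 14 pairs, 0 differed at an adjusted p of 0.05 (limma), where 0.0258% of 3874 pairs over all genes did. At an unadjusted p under 0.05 there were 2, the TMPRSS2 and TPD52 pairs given above, against a background of 6.35%. For MAF the difference was 0.22 with a 95% interval from -0.18 to 0.62, which leaves room for unequal changes of that size.

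Other genes of the pathway were taken from 2 lists. Of 24 further androgen-induced genes, kallikreins included, 16 had a probe set and 15 were tested on 28 probe sets. One fell, TSC22D3, a leucine zipper protein induced by glucocorticoid and androgen, at 1056 and 1259 in the MED1 arrays and 2281 and 2409 in the empty vector arrays (log2 fold change -1.01 ± 0.11, limma adjusted p = 0.00454). The call ended with no filter (adjusted p = 0.122) and with no intensity trend (0.232), and it held under the other 11 settings. Its second probe set, 207001_x_at, has the suffix of possible cross-hybridisation and gave -0.68 ± 0.24 (limma adjusted p = 0.443). ZBTB16, a zinc finger repressor, gave -0.33 ± 0.10 (adjusted p = 0.333), and SCD, which desaturates fatty acids, gave -0.30 ± 0.10 on 200831_s_at (adjusted p = 0.399). Its other tested probe sets gave -0.28 ± 0.16 on 211162_x_at, -0.29 ± 0.16 on 211708_s_at and 0.03 ± 0.10 on the brightest, where alone the groups overlapped. On the secreted protease KLK2 all 3 probe sets lay below 0, from -0.43 to -0.11, with 0 passing. The list's median was -0.10, and 7 of its 28 probe sets had an unadjusted p under 0.05, all lower, where 5.2% of all tested probe sets were lower with such a p. The MED1 arrays were both lower on 13 of its 28 probe sets and both higher on 0, with backgrounds of 22.6% and 17.2%. Whether this list differs from the 39 probe sets above was not tested.

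Of 19 genes for the androgen receptor and its partners, 14 had a tested probe set. On 26 probe sets 0 passed, 3 (11.5%) had an unadjusted p under 0.05, near the background of 9.2%, and the median was -0.00355. NCOA1, a coactivator of nuclear receptors, gave -0.37 ± 0.15 and -0.34 ± 0.15 on 2 probe sets (limma adjusted p = 0.48 and 0.539). The first of the 2, 209107_x_at, has the suffix of possible cross-hybridisation. NCOA1 gave -0.02 ± 0.14 on its brightest probe set and 0.08 ± 0.22 on its dimmest. PIAS1, a SUMO ligase, gave -0.28 ± 0.12 on one probe set (adjusted p = 0.492), 0.15 ± 0.14 on the second and 0.00852 ± 0.11 on the third. The pioneer factor FOXA1 gave -0.04 ± 0.12.

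**Figure D4:**
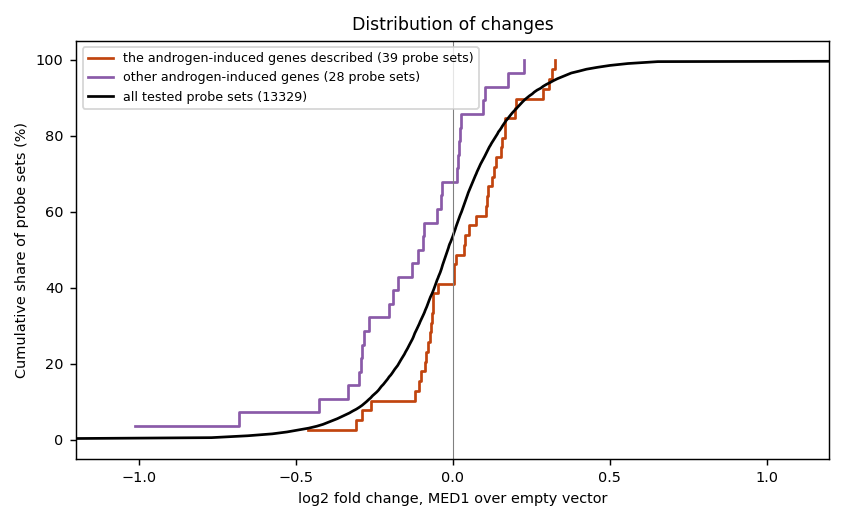
Cumulative share of probe sets (%) by log2 fold change of MED1 over empty vector, for the 39 probe sets of the androgen-induced genes, the 28 of the other androgen-induced genes and all 13329 tested. The first curve runs from -0.46 to 0.32, close to that of all tested probe sets. The second lies to the left of the first, with a median of -0.10.

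The promoters of the genes were searched for the letters that the androgen receptor binds, in the stretch from 250 bases before to 50 bases after each gene's start (RefSeq, GRCh38.p14). Such a stretch was at hand for 26 of the 34 genes. ADAMTS1, ELL2, KRT19, NDRG1, PLPP1, SORD, TMPRSS2 and TPD52 had none, so the counts do not cover them. The full androgen response element, AGAACA followed after any 3 bases by its reverse complement, which reads the same on both strands, was in 0 of the 26 and in 1 of 27305 promoters of all genes. The 6 bases AGAACA on either strand, which the full element contains, were in 1 of the 26 (3.85%) and in 14.9% of all. The single match was in PMEPA1, whose promoter is shown for that reason with these 6 bases in capitals. It lies on chromosome 20, at chr20:57711423-57711722 on the minus strand, where they start at base 23 after the gene's start.
PMEPA1: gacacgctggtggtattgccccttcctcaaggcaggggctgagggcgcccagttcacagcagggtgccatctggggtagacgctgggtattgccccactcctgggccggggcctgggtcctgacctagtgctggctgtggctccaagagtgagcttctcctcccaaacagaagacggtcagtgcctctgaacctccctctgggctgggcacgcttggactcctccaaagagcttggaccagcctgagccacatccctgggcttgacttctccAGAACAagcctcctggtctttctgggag
A match of these letters is a description and not a binding site, and their absence from this window says nothing of the distal enhancers.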

How the data were processed

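Each deposited value is the MAS5 signal intensity of 1 probe set on 1 array, per the submitters' processing notes. The values are linear, and the authors' scaling gives every array about the same trimmed mean. The version of MAS5 is not given in the sources used here, and detection calls were not used. Arrays have no read depth, and their number limits the precision. Groups came from the titles. For the empty vector samples the description field mentions the MED1 vector, unlike their title, source and transfection label, and was not followed.

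Of 22277 probe sets, 62 Affymetrix controls were left out. Genes were named from the platform annotation, for probe sets with 1 gene only (19070), with symbols updated by Entrez ID (19058 matched). Signals were taken as log2(value + 16), so that fold changes of dim genes are understated. Probe sets with a mean on that scale under the 40th percentile were left out (8886). The rest were fitted with limma 3.58.1 in R 4.3.3 (eBayes with an intensity trend, prior degrees of freedom 7.3 against 2 residual ones), with Benjamini-Hochberg adjustment over 13329 probe sets. Pairs of probe sets of 1 gene were fitted likewise on their difference. The scripts were tested on simulated data. The genes, lists and tests were chosen with earlier results of these data known. Per-array values are given for the probe sets of lowest unadjusted p and the first genes of each role. Of the genes with opposite signs, TMPRSS2, TPD52 and MAF have them, and HPGD and MPHOSPH9 do not. ABCC4, ANKH, TRPM8, UAP1, GNMT, PLPP1, HOMER2, IQGAP2, EAF2 and KRT19 have per-array values outside that rule. From the other lists the genes of lowest unadjusted p are named. FOXA1 and KLK2 are outside that choice, picked once their values were known. Alternatives covered the pseudocount, scaling, filter, variance model, replicate block and each array left out. Same-numbered arrays correlated at 0.12 in their deviations from the group means, and the labels do not pair them.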

Additional observations from a re-analysis of the deposited data

How the results depend on the processing

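With the 2 pseudocounts, both other scalings, both other filters, both other variance models and each array left out, 0 of the androgen-induced probe sets passed in either direction and 0 pairs of probe sets of 1 gene disagreed (limma). At an unadjusted p under 0.05 the counts were 2 higher and 2 lower, and over settings they ranged from 1 probe set (without MED1 replicate 1) to 8 (without empty vector replicate 1). With an array left out, 1 group is a single array, which is assumed to vary like the other group. LRIG1 had such a p in all 13 settings, 4 of them of that kind. With the replicate number as a block, 1 passed higher, ADAMTS1 (adjusted p = 0.049, over settings 0.049 to 0.893), and 1 lower, LRIG1 (adjusted p = 0.0264, over settings 0.0264 to 0.607), while 0 pairs disagreed. The arrays share only a number, and the count over all probe sets rose with the block too, to 239 against 39. No filter gave 0, so that the MED1 and TSC22D3 calls ended, dropping the variance trend gave 5, without these calls, and leaving out an array gave 25 to 216. The median log2 change of the androgen-induced probe sets was 0.0880 with arrays centred on their median, where that of all tested moved to 0.0363. It was 0.00638 with the 60th-percentile filter, which left 34 probe sets, and -0.00799 (without empty vector replicate 2) to 0.0841 (without MED1 replicate 2). Of the 39 probe sets, 21 kept their sign under every setting in which they were tested. CAMKK2 213812_s_at turned to 0.00459 with centring, and 17 turned with an array left out, none with a call. Their ranges were TMPRSS2 205102_at -0.025 to 0.36, ANKH -0.00978 to 0.41, HPGD 203913_s_at -0.0672 to 0.22, 203914_x_at -0.26 to 0.0841, 211548_s_at -0.00799 to 0.0801, 211549_s_at -0.25 to 0.11, PLPP1 209147_s_at -0.23 to 0.0509 and 210946_at -0.17 to 0.0481, TPD52 201688_s_at -0.0526 to 0.38 and 201689_s_at -0.13 to 0.40, HOMER2 -0.24 to 0.0233, IQGAP2 -0.15 to 0.15, MAF 209348_s_at -0.0128 to 0.32, CENPN 219555_s_at -0.0584 to 0.14 and 222118_at -0.0443 to 0.0638, MPHOSPH9 206205_at -0.22 to 0.090, KRT19 -0.00609 to 0.0121. The causes of these shifts were not tested.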
